A study of Arabidopsis thaliana with 4 samples.

Results

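The genes described here are 49 nuclear genes of Arabidopsis thaliana that encode the light-harvesting antennae, the photosystem subunits and the electron carriers of the thylakoid membrane. They were chosen by locus identifier from the 33602 genes of the deposited RPKM table (reads per kilobase of gene, scaled for library size), a rule that uses no measured value, although the set was proposed with earlier results of these data known. There were 18 antenna genes, 22 genes of the photosystem cores and 9 genes of electron transport and ATP synthase. The antenna genes split into 4 LHCA genes, whose proteins bind photosystem I, and 14 LHCB genes, whose proteins bind photosystem II. The core genes split into 12 PSA genes of photosystem I and 10 PSB genes of photosystem II.

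Photosystems I and II convert light into electron flow across the thylakoid membrane. The antenna proteins bind most of the chlorophyll of a leaf and pass light energy to the photosystem cores, and plastocyanin, ferredoxin and ferredoxin-NADP reductase carry electrons onward. Many subunits are encoded by small families of related nuclear genes, while the reaction centre proteins themselves are encoded in the chloroplast. The nuclear genes are known for strong control of their transcripts by light, sugars, the circadian clock and signals from the chloroplast.

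RNA came from whole 14-day-old seedlings of the wild-type ecotype Col-0, grown hydroponically in 16 h light and 8 h dark without nitrogen. The treated group was moved to the same nitrogen-free salts with 2.5 mM glutamate for 0.5 h, and the 0 h group was not. There were 2 libraries in each group, with 1 batch name for all 4. Seedlings moved for 0.5 h to fresh medium lacking glutamate are not among them, so glutamate, the move and the elapsed time cannot be told apart. Whether libraries 1 and 2 of a group came from different cultures is not in the labels, so p-values here weigh differences against the spread of these 4 libraries alone, and that spread may be technical.

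Reads recovered from the table came to 21776591 and 24599747 in the glutamate libraries and to 27674428 and 23669900 in the 0 h libraries. Genes were tested where their mean reached 1 RPKM. Of these 17750, limma called 5473 (30.8%) at a Benjamini-Hochberg adjusted p under 0.05, with 2888 higher (16.3%) and 2585 lower (14.6%) after glutamate. As deposited, the median log2 change over them was -0.06, and it was -0.23 with libraries scaled to their totals and -0.15 with quantile normalization. Log2 changes below are on the log2(RPKM + 1) scale, glutamate minus 0 h, with the standard error (SE) of the fit. A column named maxMultiRatio has no definition in the table. For 100% of the 24675 genes where it is 0, recovered reads came out as whole numbers within 0.01. It is therefore taken here as the part of a gene's reads with further matches in the genome and called the shared fraction, and 26 of the 49 genes had a value of 0.

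After 0.5 h of glutamate the nuclear photosynthesis genes took a smaller part of the transcripts, and most of that difference lay in the antenna. All 49 genes passed the minimum of 1 RPKM. By limma (adjusted p under 0.05), 16 of the 49 fell and 0 rose, beside 14.6% lower, 16.3% higher and 30.8% called in either direction among all tested genes. The log2 change was below 0 for 46 of the 49, against 55.8% of all tested genes. Both glutamate libraries lay below both 0 h libraries for 36 of the 49 genes, against 37.1% of all tested genes, and above both for 0, against 29.1%. For the other 13 genes the groups overlapped. A fall of at least 2-fold was measured for 10 genes, against 4.94% of all tested genes, and the median log2 change was -0.37, against -0.06 over all tested genes. In whole seedlings, fewer cells of a type and less RNA per cell cannot be told apart.

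The 49 genes held 6.76% and 7.27% of the summed RPKM of the glutamate libraries and 11.4% and 12.6% of that of the 0 h libraries. Their share of recovered reads was 5.35% and 5.83% after glutamate and 9.12% and 10.3% at 0 h. Both glutamate libraries were below both 0 h libraries on either scale. The 18 antenna genes held 3.27% and 3.56% of the summed RPKM after glutamate and 6.92% and 7.49% at 0 h, and the 22 core genes held 2.93% and 3.19% after glutamate and 3.82% and 4.46% at 0 h. Among the 10 most abundant genes of the table by mean RPKM, 2 were photosynthesis genes of this set after glutamate and 5 were at 0 h. Among the 50 most abundant, 10 were after glutamate and 24 were at 0 h.

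**Figure D1:**
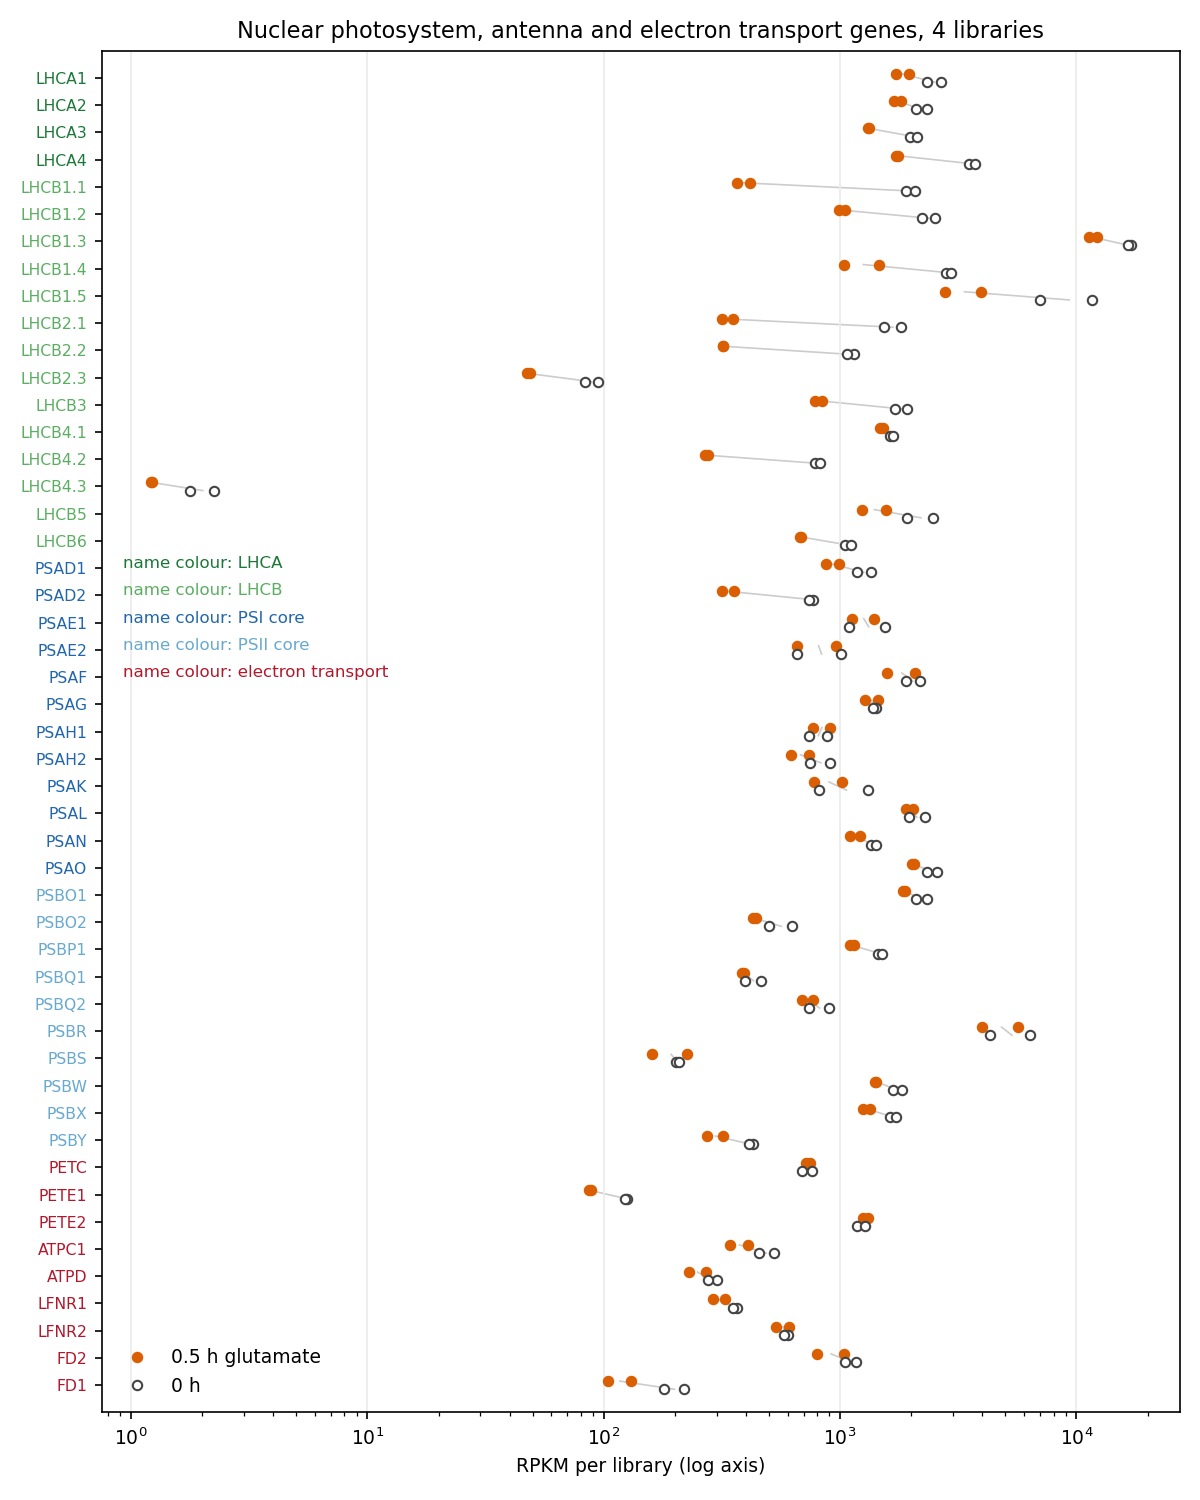
Level of each of the 49 genes in each library, in RPKM on a log axis. Filled points are the 2 glutamate libraries, open points are the 2 libraries of 0 h, grey lines join the group means, and the colour of a name gives its class. All 18 antenna genes have their filled points left of their open points, while the points of 10 of the 22 core genes overlap.

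Antenna genes and core genes differed in how far they moved. Of the 18 antenna genes 12 fell, the median log2 change was -0.96, and both glutamate libraries lay below both 0 h libraries for all 18. Of the 22 core genes 2 fell, the median was -0.23, and 12 were below both while 10 overlapped. Of the 9 genes of electron transport and ATP synthase 2 fell, the median was -0.23, and 6 were below both while 3 overlapped. None of the 49 was called higher. Over all tested genes 14.6% fell, and both glutamate libraries lay below both 0 h libraries for 37.1%. These shares also stand beside the counts of the classes below. The counts depend on the scaling: with library totals 17 antenna genes and 8 core genes were called lower, and with quantile normalization 15 antenna genes and 12 core genes. The lower calls over all tested genes also grew, from 2585 of 17750 as deposited to 4364 of 17705 with library totals and 3359 of 17750 with quantile normalization.

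The contrast between antenna and core was visible in each library. The mean log2(RPKM + 1) of the 18 antenna genes minus that of the 22 core genes was -0.51 and -0.51 in the glutamate libraries and 0.36 and 0.19 in the 0 h libraries, a difference of -0.79. On the linear scale the summed antenna RPKM was 1.12 and 1.12 times the summed core RPKM after glutamate and 1.81 and 1.68 times at 0 h. The groups did not overlap in either measure. No p is given, since the genes are not replicates and 2 against 2 libraries cannot reach an exact permutation p under 0.33. With the copies of each family except LHCB4 summed into 1 gene the difference was -0.59. Over the genes with a shared fraction under 0.05 it was -0.43.

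**Figure D2:**
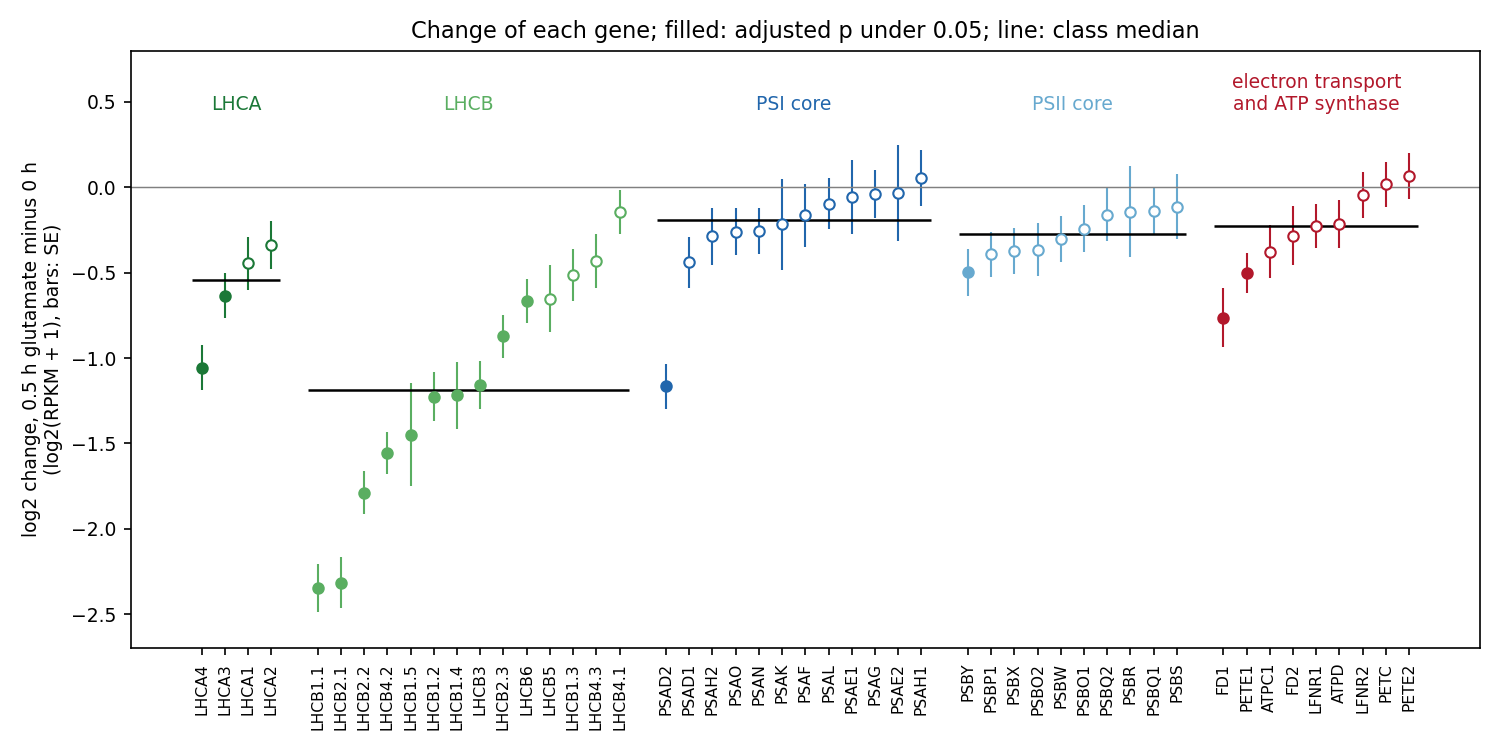
Log2 change of each gene, 0.5 h glutamate minus 0 h, on the log2(RPKM + 1) scale, ordered within its class. Points are fitted changes, bars are 1 SE, filled points have an adjusted p under 0.05, and black lines are class medians (-0.54 for LHCA, -1.19 for LHCB, -0.19 for the photosystem I core, -0.27 for the photosystem II core and -0.23 for electron transport). The 14 LHCB genes reach from -2.35 to -0.14, and the 2 called core genes are PSAD2 and PSBY.

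The LHCB1 genes encode the most abundant protein of the trimeric light-harvesting complex II, a main target of the kinase that moves antenna between the photosystems. Of the 5 copies 4 fell, and the most abundant copy did not pass. LHCB1.1, LHCB1.2 and LHCB1.3 (AT1G29920, AT1G29910 and AT1G29930) are single-exon genes that lie side by side on chromosome 1, and their coding sequences of 804 bases are 95.6% to 96.4% identical in pairs. Bases 1 to 90 of the 3 coding sequences in the RefSeq TAIR10.1 genome are shown. They were chosen because no stretch of that length holds more positions that differ. Reads from stretches with fewer such positions can match several copies. Capitals mark the 9 positions of the stretch, of 47 in all, where at least 1 of the 3 differs. The stretches lie at chr1:10475803-10475892 on the minus strand for LHCB1.1, at chr1:10473157-10473246 on the minus strand for LHCB1.2 and at chr1:10478071-10478160 on the plus strand for LHCB1.3.
LHCB1.1: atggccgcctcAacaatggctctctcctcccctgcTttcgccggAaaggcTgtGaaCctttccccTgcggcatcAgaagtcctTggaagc
LHCB1.2: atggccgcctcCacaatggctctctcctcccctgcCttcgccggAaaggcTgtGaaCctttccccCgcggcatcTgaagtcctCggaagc
LHCB1.3: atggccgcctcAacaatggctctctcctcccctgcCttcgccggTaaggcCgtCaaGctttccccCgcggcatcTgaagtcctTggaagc

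LHCB1.1 had 368 and 415 RPKM in the glutamate libraries, against 1906 and 2083 RPKM in the 0 h libraries. Both glutamate libraries lay far below both 0 h libraries, and the mean after glutamate was 19.6% of that at 0 h. The log2 change of -2.35 ± 0.14 was the largest fall of the 49 genes (limma, adjusted p = 0.000228). LHCB1.3 had 11319 and 12158 RPKM after glutamate, against 16968 and 16518 RPKM at 0 h, which made it number 2 of the table by mean RPKM after glutamate and number 1 at 0 h. Its libraries did not overlap between groups either, but the log2 change of -0.51 ± 0.15 missed the threshold (limma, adjusted p = 0.0545), and the gene was called in 7 of 15 alternative settings. After quantile normalization its log2 change was 0 within rounding. That method gives equal ranks the same value in every library. For a gene at the top of both groups the value follows from rank and does not measure a change in level.

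LHCB1.2 had 985 and 1044 RPKM after glutamate and 2227 and 2530 RPKM at 0 h. LHCB1.4 (AT2G34430) had 1042 and 1465 RPKM after glutamate and 2814 and 2943 RPKM at 0 h. The groups of both genes stood well apart, with log2 changes of -1.23 ± 0.14 and -1.22 ± 0.20 (limma, adjusted p = 0.00223 and 0.00745). LHCB1.5 (AT2G34420), a neighbour of LHCB1.4 on chromosome 2, had 2771 and 3949 RPKM after glutamate and 7034 and 11608 RPKM at 0 h. Its libraries spread widely within each group but did not overlap between groups, with a log2 change of -1.45 ± 0.30 (limma, adjusted p = 0.0176).

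Summed over the 5 copies, LHCB1 had 16484 and 19031 RPKM after glutamate, against 30948 and 35681 RPKM at 0 h. The sum fell by 0.91 ± 0.18 on the log2 scale (limma, adjusted p = 0.0145), to 53.3% of the mean at 0 h. The make-up of the family differed as well. LHCB1.3 gave 68.7% and 63.9% of the sum after glutamate and 54.8% and 46.3% at 0 h, and LHCB1.1 gave 2.23% and 2.18% after glutamate and 6.16% and 5.84% at 0 h. The shared fractions of the 5 copies lay between 0.152 and 0.254, so the division of reads among the copies is uncertain. The differences in share between copies were not tested.

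LHCB2 is the other phosphorylated protein of the trimers, and LHCB3 a smaller partner that lacks that phosphorylation site. LHCB2.1 (AT2G05100) had 353 and 316 RPKM after glutamate, against 1804 and 1541 RPKM at 0 h. LHCB2.2 (AT2G05070) had 321 and 320 RPKM after glutamate, against 1147 and 1073 RPKM at 0 h. Both genes fell without any overlap of the groups, with log2 changes of -2.32 ± 0.15 and -1.79 ± 0.13 (limma, adjusted p = 0.000290 and 0.000380). Their shared fractions of 0.433 and 0.442 were the highest among the antenna genes, and 92.9% of their aligned coding bases are identical. LHCB2.3 (AT3G27690), whose shared fraction was 6.6e-05, had 48.6 and 47.2 RPKM after glutamate and 94.1 and 83.2 RPKM at 0 h. It fell by 0.87 ± 0.13 (limma, adjusted p = 0.00500).

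The summed LHCB2 level was 722 and 684 RPKM after glutamate, against 3045 and 2697 RPKM at 0 h. This fall to 24.5% of the mean at 0 h, a log2 change of -2.03 ± 0.14, was the largest of the families summed (limma, adjusted p = 0.000359). LHCB3 (AT5G54270) had 839 and 782 RPKM after glutamate, against 1925 and 1701 RPKM at 0 h. It fell by 1.16 ± 0.14 on the log2 scale (limma, adjusted p = 0.00266), again with no overlap. Over LHCB1, LHCB2 and LHCB3 together, 8 of 9 genes fell, with a median log2 change of -1.23.

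**Figure D3:**
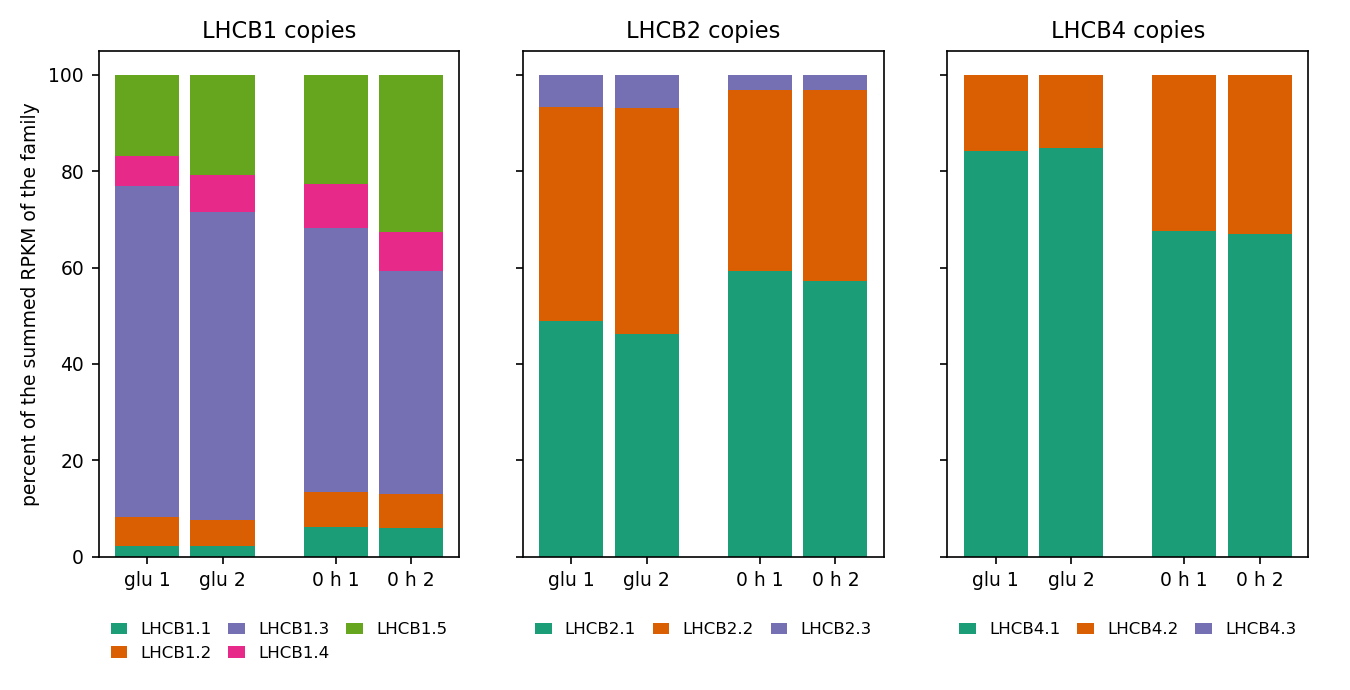
Share of each copy in the summed RPKM of its family, in percent, for the 2 glutamate libraries (glu 1, glu 2) and the 2 libraries of 0 h. In both glutamate libraries LHCB1.3 and LHCB4.1 take a larger share than in both libraries of 0 h, and LHCB1.1 and LHCB4.2 take a smaller share.

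The minor antenna proteins CP29, CP26 and CP24 sit as monomers between the trimers and the photosystem II core and are encoded by LHCB4, LHCB5 and LHCB6. Of their 5 genes 2 fell. The 2 main CP29 genes differed in behaviour although neither shares reads to any extent, with shared fractions of 0 for LHCB4.1 and 0.000392 for LHCB4.2, and 81.9% of their aligned coding bases are identical. LHCB4.2 (AT3G08940) had 276 and 269 RPKM after glutamate, against 783 and 825 RPKM at 0 h. It fell by 1.56 ± 0.12 on the log2 scale (limma, adjusted p = 0.000566). LHCB4.1 (AT5G01530) had 1472 and 1524 RPKM after glutamate, against 1632 and 1679 RPKM at 0 h, a log2 change of -0.14 ± 0.13 (limma, adjusted p = 0.456), the smallest change among the LHCB genes. The groups of LHCB4.2 stood far apart, and those of LHCB4.1 lay close together without overlap.

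The ratio of LHCB4.1 to LHCB4.2 was 5.33 and 5.66 in the glutamate libraries and 2.08 and 2.04 in the 0 h libraries. The ratio was thus higher in both glutamate libraries, and the difference between the copies was not tested. LHCB4.3 (AT2G40100), a rarely expressed copy, had 1.21 and 1.23 RPKM after glutamate, from 33 and 39 reads, and 2.25 and 1.78 RPKM at 0 h, from 90 and 62 reads. Its log2 change of -0.43 ± 0.16 did not pass (limma, adjusted p = 0.0959). LHCB6 (AT1G15820) had 680 and 683 RPKM after glutamate and 1050 and 1114 RPKM at 0 h, and fell by 0.67 ± 0.13 (limma, adjusted p = 0.0131). That call was lost without glutamate replicate 1, glutamate replicate 2 or 0 h replicate 2 (adjusted p = 0.0722, 0.0680 and 0.0727). LHCB5 (AT4G10340) had 1557 and 1234 RPKM after glutamate and 2468 and 1924 RPKM at 0 h, a log2 change of -0.65 ± 0.20 that missed the threshold (limma, adjusted p = 0.0567) and passed without 0 h replicate 2 (0.0401).

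The promoter windows of the 2 CP29 genes are shown because LHCB4.2 fell and LHCB4.1 did not pass, each from 250 bases before to 50 bases after the annotated start in RefSeq TAIR10.1. LHCB4.1 lies at chr5:208616-208915 and LHCB4.2 at chr3:2717307-2717606, both on the plus strand. Capitals mark exact matches, on either strand, to the G-box CACGTG or the I-box GATAAG, 2 elements long known from promoters of light-regulated genes.
LHCB4.1: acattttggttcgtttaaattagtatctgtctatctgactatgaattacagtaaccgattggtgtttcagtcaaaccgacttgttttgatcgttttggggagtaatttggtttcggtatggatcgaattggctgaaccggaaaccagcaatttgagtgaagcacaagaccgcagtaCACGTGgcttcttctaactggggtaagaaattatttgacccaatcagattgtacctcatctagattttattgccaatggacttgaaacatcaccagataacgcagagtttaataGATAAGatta
LHCB4.2: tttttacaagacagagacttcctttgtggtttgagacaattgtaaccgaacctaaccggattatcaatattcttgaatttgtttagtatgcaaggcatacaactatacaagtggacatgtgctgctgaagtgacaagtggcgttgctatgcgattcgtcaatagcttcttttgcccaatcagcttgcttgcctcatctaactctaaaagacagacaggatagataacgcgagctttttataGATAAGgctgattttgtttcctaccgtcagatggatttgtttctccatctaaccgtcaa
The LHCB4.1 window holds 1 G-box and 1 I-box, and the LHCB4.2 window holds 1 I-box. A match describes the sequence only.

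The LHCA proteins form the belt of antenna around photosystem I. Of the 4 genes 2 fell, with a median log2 change of -0.54. LHCA4 (AT3G47470), whose protein pairs with LHCA1 and holds far-red absorbing chlorophyll, had 1724 and 1751 RPKM after glutamate, against 3525 and 3703 RPKM at 0 h. Its mean after glutamate was 48.1% of that at 0 h, with no overlap, and it fell by 1.06 ± 0.13 on the log2 scale (limma, adjusted p = 0.00312). LHCA3 (AT1G61520) had 1329 and 1308 RPKM after glutamate and 1983 and 2114 RPKM at 0 h, a fall of 0.64 ± 0.13 (limma, adjusted p = 0.0176). That call was lost whichever library was left out (adjusted p = 0.0664 to 0.107).

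LHCA1 (AT3G54890) had 1724 and 1947 RPKM after glutamate and 2322 and 2682 RPKM at 0 h. LHCA2 (AT3G61470) had 1686 and 1811 RPKM after glutamate and 2094 and 2330 RPKM at 0 h. Both were lower in both glutamate libraries, but neither passed (limma, adjusted p = 0.0841 and 0.136). After glutamate LHCA1, LHCA2 and LHCA4 overlapped and LHCA3 was below them. At 0 h LHCA4 was above the other 3, LHCA2 overlapped both LHCA1 and LHCA3, and LHCA1 was above LHCA3. These levels are per kilobase of the deposited gene length.

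The PSA genes of photosystem I encode the nuclear subunits around the reaction centre. Of the 12 genes 1 fell, against 14.6% of all tested genes. The median log2 change was -0.19, and the libraries of 7 genes overlapped between groups. PSAD, the stromal subunit where ferredoxin docks, has 2 genes. PSAD2 (AT1G03130) had 354 and 318 RPKM after glutamate, against 767 and 741 RPKM at 0 h. The groups stood well apart, the mean after glutamate was 44.6% of that at 0 h, and the gene fell by 1.17 ± 0.13 on the log2 scale (limma, adjusted p = 0.00196). PSAD1 (AT4G02770) had 870 and 986 RPKM after glutamate and 1174 and 1346 RPKM at 0 h, a log2 change of -0.44 ± 0.15 that did not pass (limma, adjusted p = 0.0795). The summed PSAD level fell to 62.8% of its mean at 0 h, a log2 change of -0.67 ± 0.13 (limma, adjusted p = 0.0157). The ratio of PSAD1 to PSAD2 was 2.46 and 3.10 after glutamate and 1.53 and 1.82 at 0 h.

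PSAO (AT1G08380), which helps antenna trimers dock at photosystem I, was the most abundant gene of the class by mean RPKM. It had 2015 and 2062 RPKM after glutamate and 2322 and 2567 RPKM at 0 h, a log2 change of -0.26 ± 0.14 (limma, adjusted p = 0.222). PSAE2 (AT2G20260), a copy of another stromal subunit, had the smallest change of the class, with 657 and 965 RPKM after glutamate and 657 and 1012 RPKM at 0 h. Its 2 libraries of either group differed far more than the groups did (log2 change -0.03 ± 0.28, limma, adjusted p = 0.943), and replicate 2 was the higher in both groups. The remaining genes, which encode PSAE1, the plastocyanin-docking subunit PSAF, PSAG, PSAK, PSAL, PSAN and both copies of PSAH, had log2 changes between -0.29 and 0.05, and none passed (limma, adjusted p of at least 0.217). PSAH1 (AT3G16140) had a shared fraction of 0.437, the highest among the core genes.

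The PSB genes encode nuclear subunits of photosystem II, among them the extrinsic PSBO, PSBP and PSBQ proteins that protect the oxygen-evolving manganese cluster. Of the 10 genes 1 fell, against 14.6% of all tested genes, and the median log2 change was -0.27. For 7 genes both glutamate libraries lay below both 0 h libraries, against 37.1% of all tested genes. PSBY (AT1G67740), a small membrane subunit, had 319 and 274 RPKM after glutamate, against 426 and 410 RPKM at 0 h. Its fall of 0.50 ± 0.14 on the log2 scale (limma, adjusted p = 0.0438) was lost whichever library was left out (adjusted p = 0.0754 to 0.268), so that 1 core gene was called in each of those fits.

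PSBR (AT1G79040), another small subunit, was the most abundant core gene, with 3972 and 5664 RPKM after glutamate and 4320 and 6352 RPKM at 0 h. Its libraries overlapped between groups (limma, adjusted p = 0.727), and it ranked number 6 of the table in both groups. PSBS (AT1G44575), the protein that senses acidification of the lumen and switches on heat dissipation, had 226 and 160 RPKM after glutamate and 202 and 209 RPKM at 0 h. The 0 h libraries lay between the glutamate libraries, and its log2 change of -0.11 ± 0.19 was the smallest of the class (limma, adjusted p = 0.695). The extrinsic subunit genes PSBO1, PSBO2, PSBP1, PSBQ1 and PSBQ2 and the small subunit genes PSBW and PSBX had log2 changes between -0.39 and -0.14, and none passed (limma, adjusted p of at least 0.0727).

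Among the electron carriers and ATP synthase subunits, the 2 genes that fell in the fit of all 4 libraries were the less abundant copies of ferredoxin and plastocyanin. FD1 (AT1G10960), a leaf ferredoxin, had 104 and 130 RPKM after glutamate, against 179 and 219 RPKM at 0 h. It fell by 0.76 ± 0.17 on the log2 scale (limma, adjusted p = 0.0241), and the call was lost without glutamate replicate 1 (0.0807) or 0 h replicate 2 (0.0690). FD2 (AT1G60950), the main leaf ferredoxin, had 1034 and 799 RPKM after glutamate and 1165 and 1049 RPKM at 0 h, with a log2 change of -0.28 ± 0.17 (limma, adjusted p = 0.283). The copper protein plastocyanin carries electrons from the cytochrome complex to photosystem I. PETE1 (AT1G76100) had 86.8 and 88.6 RPKM after glutamate, against 126 and 124 RPKM at 0 h. It fell by 0.50 ± 0.12 (limma, adjusted p = 0.0247), a call that was lost whichever library was left out (adjusted p = 0.0926 to 0.129). Without glutamate replicate 1 or 0 h replicate 2, 0 of the 9 genes were called.

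PETE2 (AT1G20340), the main plastocyanin gene and the most abundant gene of the class, had 1253 and 1316 RPKM after glutamate and 1177 and 1278 RPKM at 0 h. PETC (AT4G03280), the Rieske iron-sulfur protein of the cytochrome complex, had 745 and 718 RPKM after glutamate and 688 and 760 RPKM at 0 h. The groups of both genes overlapped, with log2 changes of 0.07 ± 0.13 and 0.02 ± 0.13 (limma, adjusted p = 0.749 and 0.936). The ATP synthase genes ATPC1 and ATPD and the ferredoxin-NADP reductase genes LFNR1 and LFNR2 had log2 changes between -0.38 and -0.04 and did not pass (limma, adjusted p of at least 0.128). The summed plastocyanin level was 101% of its mean at 0 h, the summed reductase level 92.8% and the summed ferredoxin level 79.1%, and none of these sums passed (limma, adjusted p of at least 0.159).

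Of the 8 subunits with a pair of genes in the set, 3 had exactly 1 called copy (PSAD2, PETE1 and FD1), and in each it was the less abundant copy. In 5 of the 8 pairs the less abundant copy had the more negative log2 change. The ratio of PETE2 to PETE1 was 14.4 and 14.9 after glutamate and 9.38 and 10.3 at 0 h, without overlap. The ratio of FD2 to FD1 was 9.93 and 6.14 after glutamate and 6.50 and 4.78 at 0 h, with overlap. These differences between copies were not tested. Across the 49 genes, which share the same 4 libraries, the log2 change had a Pearson correlation of -0.05 with log2 mean RPKM and of -0.18 with gene length.

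The 3 genes with the largest falls, LHCB1.1, LHCB2.1 and LHCB2.2, had shared fractions of 0.254, 0.433 and 0.442. Across the 49 genes the log2 change had a Pearson correlation of -0.56 with the shared fraction. Of the 9 antenna genes with a shared fraction of at least 0.05, 7 fell (median log2 change -1.23). Of the 9 with a fraction under 0.05, 5 fell (median -0.65), namely LHCA3, LHCA4, LHCB2.3, LHCB4.2 and LHCB6. Of the 20 core genes with a fraction under 0.05, 2 fell (median -0.25). The sign of the difference between antenna and core was the same with and without the shared genes. The part of shared reads in the size of single changes was not tested.

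The short elements in the start regions of the antenna and core genes are counted here as a description of the sequences. Differences between these counts were not tested. In windows from 250 bases before to 50 bases after the annotated start, searched on both strands, the G-box CACGTG occurred in 4 of 18 antenna genes (22.2%), 10 of 22 core genes (45.5%) and 7.68% of 27443 windows of protein-coding genes. Among the core genes it occurred in 6 of the 10 PSB genes. The I-box GATAAG occurred in 6 antenna genes (33.3%), 11 of the 22 core genes and 14.6% of all windows. The CCA1-binding elements are named after a clock factor known to bind an LHCB1 promoter. Of these, AAAAATCT occurred in 4 antenna genes (22.2%), 2 core genes (9.09%) and 7.88% of all windows, and AACAATCT in 1 antenna gene, 1 core gene and 2.24% of all windows. The evening element AAAATATCT occurred in 0 antenna genes, 0 core genes and 2.82% of all windows. None of these elements contains another.

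The windows of LHCB1.1, which had the largest fall, and LHCB1.3, the most abundant copy, are shown with matches to the CCA1-binding elements in capitals. They lie in RefSeq TAIR10.1 at chr1:10475920-10476219 on the minus strand for LHCB1.1 and at chr1:10477635-10477934 on the plus strand for LHCB1.3.
LHCB1.1: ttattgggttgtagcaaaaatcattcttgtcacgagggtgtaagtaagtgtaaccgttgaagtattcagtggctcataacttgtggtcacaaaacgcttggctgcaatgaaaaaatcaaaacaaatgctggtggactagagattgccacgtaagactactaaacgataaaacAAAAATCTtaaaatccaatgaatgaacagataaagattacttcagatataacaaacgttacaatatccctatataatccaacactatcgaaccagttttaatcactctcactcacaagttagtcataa
LHCB1.3: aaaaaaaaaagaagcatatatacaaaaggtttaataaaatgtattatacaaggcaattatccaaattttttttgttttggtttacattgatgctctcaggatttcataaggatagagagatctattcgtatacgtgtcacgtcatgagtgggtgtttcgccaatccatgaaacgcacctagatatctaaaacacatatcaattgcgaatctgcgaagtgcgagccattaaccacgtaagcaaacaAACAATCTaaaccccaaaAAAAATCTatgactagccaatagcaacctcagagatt
LHCB1.1 holds 1 match to AAAAATCT, and LHCB1.3 holds 1 match to AAAAATCT and 1 to AACAATCT. The gene of CCA1 itself had 5.97 and 6.45 RPKM after glutamate, against 15.5 and 15.1 RPKM at 0 h (limma, adjusted p = 0.00153). A link between its level, these matches and the changes of the LHCB1 genes was not tested.

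For the related lists that follow, the shares over all tested genes are 14.6% lower and 16.3% higher. Of 9 other light-harvesting-like genes 5 fell and 0 rose, with a median log2 change of -0.60. ELIP1, an early light-induced protein, had 3.29 and 3.97 RPKM after glutamate and 7.96 and 7.67 RPKM at 0 h, a log2 change of -0.93 ± 0.14 (limma, adjusted p = 0.00576). ELIP2 fell by 0.93 ± 0.22 (adjusted p = 0.0277, and 0.0569 or 0.0508 without glutamate replicate 2 or 0 h replicate 1). OHP1 fell by 0.69 ± 0.16 (adjusted p = 0.0231, and 0.0714 or 0.0919 without glutamate replicate 1 or 0 h replicate 2), with a shared fraction of 0.203. Between 2 and 3 genes of this list were called lower when 1 library was left out.

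Of 10 genes of antenna insertion and photosystem assembly 1 fell and 0 rose. It was CPSRP43, the chloroplast chaperone that carries antenna proteins to the thylakoid, with 67.6 and 60.98 RPKM after glutamate and 168 and 147 RPKM at 0 h, a log2 change of -1.28 ± 0.14 (limma, adjusted p = 0.00166). Of 9 tested genes of other photosystem and thylakoid subunits 1 fell, PSB27-1, a photosystem II repair factor, with a log2 change of -0.69 ± 0.13 (adjusted p = 0.0127, and 0.0583 or 0.0607 without glutamate replicate 2 or 0 h replicate 2). The median log2 changes of these lists were -0.25 and -0.08, and the share of their genes called lower was below that of all tested genes.

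Of 12 genes that regulate electron flow and antenna 4 fell and 0 rose, with a median of -0.37. ZEP and NPQ1 interconvert the xanthophyll pigments of the antenna, and STN7 is the kinase that phosphorylates LHCB1 and LHCB2. ZEP had 65.8 and 53.5 RPKM after glutamate and 140 and 128 RPKM at 0 h, a log2 change of -1.16 ± 0.15 (limma, adjusted p = 0.00326). NPQ1 and STN7 fell, with log2 changes of -0.84 ± 0.18 and -0.65 ± 0.13 (adjusted p = 0.0201 and 0.0168). Without glutamate replicate 2 both calls were lost (adjusted p = 0.0599 and 0.0956), that of STN7 also without 0 h replicate 1 (0.0545), and 1 gene of the list was called.

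Genes of chlorophyll synthesis fell in 6 of 18 cases and rose in 1, with a median of -0.33. GUN4, an activator of magnesium chelatase, had 22.1 and 20.4 RPKM after glutamate and 88.4 and 95.3 RPKM at 0 h, a log2 change of -2.06 ± 0.12 (limma, adjusted p = 0.000230). CAO, the enzyme that makes the chlorophyll b of the antenna, had 19.4 and 17.9 RPKM after glutamate and 74.5 and 73.1 RPKM at 0 h, a log2 change of -1.93 ± 0.12 (limma, adjusted p = 0.000256). HEMA2, a glutamyl-tRNA reductase at the entry of tetrapyrrole synthesis, was the 1 gene that rose, with 169 and 166 RPKM after glutamate against 20.4 and 16.8 RPKM at 0 h, a log2 change of 3.11 ± 0.14 (limma, adjusted p = 1e-04). Each of these 3 calls held in every alternative run on it.

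Regulators of photosynthesis genes fell in 17 of 25 tested cases and rose in 1, with a median log2 change of -0.95. GLK2, a transcription factor that activates antenna and chlorophyll genes, had 20.4 and 24.0 RPKM after glutamate and 99.6 and 102 RPKM at 0 h, a log2 change of -2.14 ± 0.13 (limma, adjusted p = 0.000262). Its partner GLK1 had 30.9 and 43.9 RPKM after glutamate and 37.4 and 41.8 RPKM at 0 h and did not pass (adjusted p = 0.738). SIG5 and SIG4, sigma factors of the chloroplast RNA polymerase, fell, with log2 changes of -1.94 ± 0.15 and -1.44 ± 0.14 (adjusted p = 0.000524 and 0.00121). The 1 regulator that rose was the clock gene TOC1, with 63.6 and 73.3 RPKM after glutamate and 28.6 and 32.5 RPKM at 0 h (log2 change 1.14 ± 0.14, limma, adjusted p = 0.00281). GLK1, TOC1, CCA1 and, among the leaf markers, RBCS1A were named after their values were seen.

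**Figure D4:**
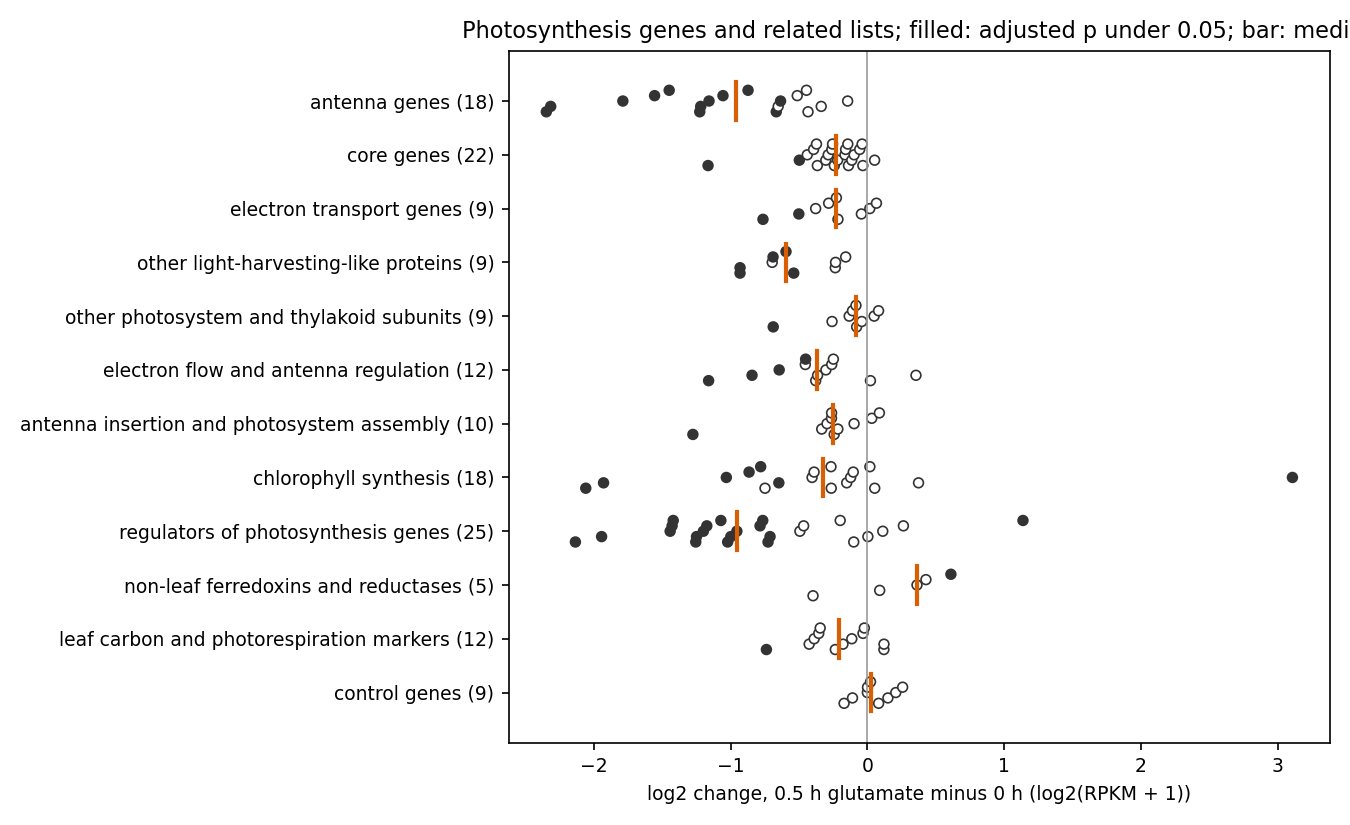
Log2 change, 0.5 h glutamate minus 0 h on the log2(RPKM + 1) scale, of the genes of the set by group and of related lists, with the number tested in brackets. Each point is a gene, filled points have an adjusted p under 0.05, and bars are medians. The antenna genes (median -0.96) and the regulators (median -0.95) lie furthest left, and the 9 control genes centre on 0.02.

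Of 5 genes for ferredoxins and reductases of the root or of other than the main leaf type, 1 rose and 0 fell, with a median of 0.36. FD3, the root-type ferredoxin, had 83.4 and 90.7 RPKM after glutamate and 53.9 and 59.5 RPKM at 0 h, a log2 change of 0.61 ± 0.13 (limma, adjusted p = 0.0177). That call was lost without glutamate replicate 2 or 0 h replicate 1 (adjusted p = 0.0919 and 0.0804), with library totals (0.0587) and with quantile normalization (0.0920). RFNR1, RFNR2, FDC1 and FDC2 had log2 changes of 0.43, 0.36, -0.40 and 0.09 and did not pass (limma, adjusted p of at least 0.0558). Of 19 chloroplast-encoded subunits 7 reached a mean of 1 RPKM, and 1 was called, psbF, on 7.3 and 6.9 reads after glutamate and 4.7 and 2.5 reads at 0 h, with a shared fraction of 0.333. That call was lost with voom weights on recovered reads (limma, adjusted p = 0.148) and without glutamate replicate 1 or 0 h replicate 2 (0.0597 and 0.0551).

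Markers of tissues bear on a sample of whole seedlings. Of 12 other leaf genes of carbon fixation and photorespiration 1 fell, SGAT (adjusted p = 0.0322, and 0.157 or 0.0971 without glutamate replicate 2 or 0 h replicate 1), and the median log2 change was -0.21. Their summed level was 10512 and 8355 RPKM after glutamate and 11577 and 10283 RPKM at 0 h, with overlap, and RBCS1A, the main small subunit gene of Rubisco, had 5931 and 4645 RPKM after glutamate and 6421 and 5496 RPKM at 0 h. Of 7 tested root markers of 10, 2 fell, PHO1 and PHT1;1, and the summed level of the 10 was 54.9 and 51.8 RPKM after glutamate and 94.8 and 77.3 RPKM at 0 h. Of 7 markers of shoot epidermis and guard cells CER6 fell, and their summed level was 183 and 167 RPKM after glutamate and 309 and 254 RPKM at 0 h. Most of that sum came from CER6 and FDH, with means of 148 and 98.9 RPKM at 0 h. FDH, ATML1, MYB60, FAMA, KAT1 and HT1 had log2 changes of -0.58, -0.37, -0.13, -0.08, 0.26 and 0.41. None of them passed (limma, adjusted p of at least 0.0908). Of 2 tested vascular markers of 3 APL rose in the fit of all 4 libraries (limma, adjusted p = 0.0299, lost without glutamate replicate 2, 0 h replicate 1 or 0 h replicate 2 at 0.191, 0.0727 and 0.0700). SUC2 had 32.1 and 24.7 RPKM after glutamate and 34.99 and 22.7 RPKM at 0 h, XCP1 was under a mean of 1 RPKM, and the 3 vascular markers summed to 41.8 and 35.3 RPKM after glutamate and 41.7 and 29.3 RPKM at 0 h. Of 9 control genes 0 were called. The root hair and epidermis markers COBL9, EXP7 and WER lay under a mean of 1 RPKM. The part of tissue make-up in the antenna result was not tested.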

How the data were processed

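The authors deposited 1 table of RPKM values for 4 RNA-seq libraries, labelled as TMM-normalized (trimmed mean of M-values), with a gene length in kilobases and maxMultiRatio, a fraction from 0 to 1 without a definition in the deposited header. RNA was extracted with Trizol and made into libraries with an Illumina TruSeq kit, per the labels' protocols. TAIR10 and SAMtools are named, per the submitters' processing notes. Aligner, read counter, strand setting and versions were not given in the sources used here, so reads of overlapping genes on opposite strands cannot be told apart.

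In the deposited table the RPKM times length follows whole reads plus 0.5 over an effective library size. This gave the depths, with whole reads (within 0.01) for 85.4% to 86.2% of all genes. Effective sizes were 0.907 and 0.932 of the reads recovered for glutamate and 1.04 and 1.06 of those for 0 h. At this depth 3 reads per kilobase are worth 0.104 to 0.152 RPKM. The libraries of a group differed by more than counting noise (chi-square per degree of freedom 27.1 for glutamate and 31.7 for 0 h).

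Values were tested on log2(RPKM + 1) with limma 3.58.1 in R 4.3.3, using a variance prior that follows intensity (3.49 prior and 2 residual degrees of freedom), two-sided, over 17750 genes whose mean reached 1 RPKM, with Benjamini-Hochberg adjustment over all of them. Log2 changes understate those of low genes. The steps were also run on simulated reads drawn independently for each library. Those runs do not measure the error of the calls in these data. Sequences, promoter windows and coding sequences came from the RefSeq TAIR10.1 genome and annotation, where all 49 locus identifiers matched. The table holds no coordinates, and its gene lengths fall within the RefSeq transcript lengths for 11 of the 49 genes, so levels between genes depend on the authors' gene models. Values per library were given for all antenna genes. In the other classes they were given for the called gene with the largest fall, the most abundant and the one with the smallest change. Pairs with 1 called copy were added, with others by range. Up to 3 called genes were named per related list. All genes were named for the non-leaf ferredoxins and reductases and for the markers of root, shoot epidermis and guard cells, and vascular tissue. The members, lists and tests were chosen with earlier results of these data known.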

Additional observations from a re-analysis of the deposited data

How the results depend on the processing

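The 49 genes were refitted under 15 or 16 alternatives each, since copies that were summed into a family have no value of their own in that fit and LHCB4.3 has none at a minimum of 5 RPKM. No called value changed direction: of 759 values, 676 kept their side of the threshold, 27 lost a call and 56 gained one. Of the 16 called genes, 6 were called under every alternative that gave them a value, 16 for LHCB4.2 and 15 for the others (LHCB1.1, LHCB2.1, LHCB2.2, LHCB2.3, LHCB4.2 and PSAD2), and 5 lost the call only without the filter on low values (LHCA4, LHCB1.2, LHCB1.4, LHCB1.5 and LHCB3). The other 5 (LHCA3, LHCB6, PSBY, PETE1 and FD1) lost it elsewhere. Of the 33 uncalled genes, 13 were never called and 20 were called, as lower, under at least 1 alternative. Of the 43 called genes of related lists, 24 were called in every alternative run on them and 16 lost the call without at least 1 library.

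Genes called lower among the 49, 16 in the fit as deposited, numbered 7 without the filter, 29 after scaling to library totals, 32 after quantile normalization, 9 with summed families and 9 with a shared fraction under 0.05. For antenna genes, 12 as deposited, the counts were 5 without the filter, 7 with summed families and 5 with a fraction under 0.05. For core genes, 2 as deposited, they were 1 without the filter, 8 with library totals, 1 with the median log2 ratio set to 0 and 12 with quantile normalization. For electron transport, 2 as deposited, they were 1 without the filter, 4 with totals, 5 with quantiles and 0 with summed families. The antenna minus core difference was -0.59 with summed families and -0.43 with a fraction under 0.05. Over all tested genes the lower calls, 2585 as deposited, came to 1335 without the filter, 4364 with library totals and 3359 with quantile normalization. Summed families and the fraction limit count fewer genes by construction, and the cause of the other changes was not tested.

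Leaving out 1 library at a time gave 11 to 13 lower genes of the 49, 10 to 11 antenna genes, 1 core gene each time, 0 to 1 electron transport genes and an antenna minus core difference of -0.87 to -0.70. Over the whole table it gave 2490 to 2727 higher and 1741 to 2072 lower genes. The single library of a group was then assumed to vary like the others.

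The replicate numbers are not stated to pair libraries. With the number as a replicate block, 34 of the 49 genes were lower (17 antenna, 11 core, 6 electron transport) and 0 higher, against 4445 higher and 5280 lower over the whole table. Deviations of same-numbered libraries correlated at 0.60 across genes. For 39 of the 49 genes the library with the same number was the higher in both groups. The counts of overlapping groups above do not take the numbers into account.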
